A study of Mus musculus with 5 samples.

Results

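The myosin heavy chain genes Myh1, Myh2, Myh3, Myh4, Myh6, Myh7, Myh8, Myh13, Myh9 and Myh10 were followed in cultured mouse muscle cells. The 10 genes were taken by name from a table of 54232 genes, and all 10 reached at least 5 normalized counts in a sample and were among the 18156 genes tested. The cells were primary myoblasts, muscle precursors isolated from leg muscles with satellite cell and integrin beads and then kept in 2% horse serum for 72 h, so that they exit the cell cycle and fuse into myotubes. They came from WT mice (n = 3) and from Elmo2EID/EID mice (n = 2) of a mixed C57BL6 and 129SV background, aged 6 to 8 weeks. The labels do not give the part of each strain in a sample, so strain differences between the groups were not tested. In Elmo2EID/EID mice both Elmo2 alleles carry an isoleucine-to-aspartate substitution made to favour the open form of ELMO2, a scaffold that activates the GTPase RAC1 together with DOCK proteins. The allele is inherited rather than driven by a transgene promoter, the line was bred with Flp mice, and both groups were differentiated in the same way. Primary cells were typically isolated from independent mice, but the labels do not tie each sample to a mouse, so that p-values measure the spread between these samples, which may be technical.

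Myosin heavy chains are the motor subunits of the thick filament. Each muscle gene encodes a motor with its own speed of ATP hydrolysis, and a muscle fibre is typed by the isoform it makes. Embryonic and neonatal isoforms are used by newly formed myotubes and are replaced by adult fast or slow isoforms as fibres mature. Most skeletal isoforms lie in a row in a single gene cluster, the cardiac pair lies head to tail in another, and non-muscle myosins drive contraction of the cell cortex in nearly all cells.

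A normalized count is the number of uniquely aligned read pairs of a gene divided by the size factor of its library. The reads counted in genes numbered between 35021856 and 49381544 per library, and 3 reads corresponded to 2.65 to 3.73 normalized counts. Elmo2 itself was at 1641.6, 1539 and 1659.5 normalized counts in WT and at 1440.8 and 1326.8 in Elmo2EID/EID samples, which does not check the labels, since the substitution leaves the gene in place. The cultures held abundant myotube transcripts other than myosin heavy chains, with skeletal actin (Acta1) at 458389.3 to 518055.4 and desmin (Des) at 210095.9 to 232024.9 normalized counts over the 5 samples. The 12 endothelial markers did not overlap between the groups, with Elmo2EID/EID the higher group for 11 and the lower for 1, where 32.6% of all genes tested did not overlap, 16.7% higher and 15.9% lower. Their summed counts were 1245.8, 402.7 and 1345.0 in WT against 3180.2 and 4642.9 in Elmo2EID/EID samples, although none passed the limma test. WT replicate 2 was the lowest of the 5 libraries in the endothelial and fibroblast lists. In bulk RNA, fewer cells of a type and less RNA per cell cannot be told apart.

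Of the 10 genes, 3 passed the test between the genotypes. Myh6, the cardiac alpha chain, was 22.4-fold higher in Elmo2EID/EID samples, and Myh2, the fast IIa chain, was 3.17-fold higher. Myh4, the fast IIb chain, was lower, at 0.666 of its WT level. Myh1, Myh3 and Myh8, which together made up 95.9% to 97.5% of the muscle myosin heavy chain counts of a sample, did not pass, and the summed muscle counts differed by 0.03 on the log2 scale. The test was limma's moderated test on log2(normalized count + 1) with Benjamini-Hochberg adjustment at 0.05, which called 2.23% of all genes tested, 1.09% higher and 1.14% lower. On the recovered reads DESeq2 and edgeR also called 3 members, 2 higher and 1 lower. DESeq2 called 5.34% of all genes, 2.27% higher and 3.06% lower, and edgeR called 2.25%, 1.12% higher and 1.13% lower. The samples of the genotypes did not overlap for 4 of the 10 genes (Myh2, Myh4, Myh6 and Myh9), as they did not for 32.6% of all genes tested.

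**Figure D1:**
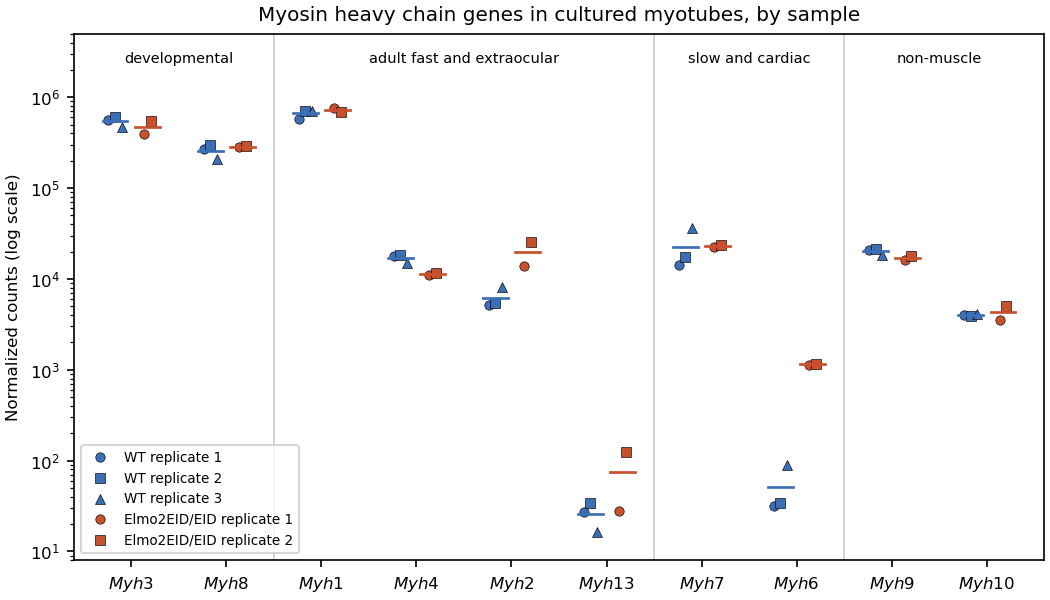
Normalized counts of the 10 myosin heavy chain genes on a log axis, with 1 point per sample and a line at the mean of each group (WT n = 3, Elmo2EID/EID n = 2). Myh1, Myh3 and Myh8 lie at 209608.2 or above in every sample, and Myh6 lies between 31.8 and 88.3 in WT but at 1136.7 and 1154.7 in Elmo2EID/EID samples.

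The muscle genes used here occupy 2 places in GRCm38. Myh3, Myh2, Myh1, Myh4, Myh8 and Myh13 lie in that order on the plus strand of chromosome 11, from 67078300 to 67371586. Myh6 and Myh7 lie on the minus strand of chromosome 14 with 3756 bases between the genes. The coding sequences of close relatives are similar, 91.4% identical between Myh6 and Myh7, 90.9% between Myh1 and Myh2 and 90.1% between Myh1 and Myh4, which bears on how reads are assigned. A 50-base read that starts at a random position of the longest coding transcript occurs in a transcript of another gene at 32.1% of positions in Myh1, 28.9% in Myh2, 28.2% in Myh7, 22.6% in Myh6, 21.4% in Myh8 and 18.9% in Myh4, but only at 8.45% in Myh13, 4.81% in Myh3, 1.12% in Myh9 and 0.947% in Myh10. With both ends of a fragment of the average length of these libraries, the ambiguous share was 7.47% in Myh1, 6.63% in Myh2, 5.79% in Myh7, 4.92% in Myh6, 4.64% in Myh4 and 1.53% in Myh8, and it was 0 in the others. Matches on either strand were included in both shares. Of the Myh7 positions, 287 matched Gm31251, a gene on the opposite strand, whose reads the stranded counting separates. Only unique alignments were counted. The next 2 sequences are the same stretch, coding bases 234 to 293, of Myh1 and Myh2. It is shown because a read from it cannot be assigned to either gene without its mate.
Myh1: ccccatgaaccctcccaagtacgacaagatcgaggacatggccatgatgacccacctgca
Myh2: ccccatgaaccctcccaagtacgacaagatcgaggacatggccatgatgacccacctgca
The 60-base stretches in which Myh6 and Myh7 differ most, starting at coding bases 3226 and 3220 and with the 27 differing bases in capitals, show the opposite case, where each read names its gene.
Myh6: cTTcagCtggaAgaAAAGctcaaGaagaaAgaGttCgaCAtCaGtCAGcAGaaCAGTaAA
Myh7: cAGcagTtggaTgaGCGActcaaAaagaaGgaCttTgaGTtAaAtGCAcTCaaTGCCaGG

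Myh6 is the fast cardiac isoform of the atria and of the adult rodent ventricle, and it is not a usual chain of limb muscle fibres. Its normalized counts were 31.8, 33.7 and 88.3 in WT samples and 1136.7 and 1154.7 in Elmo2EID/EID samples. These values rested on 36, 30 and 71 reads in WT and on 1271 and 1288 reads in Elmo2EID/EID libraries, all above the floor of 3 reads. Both Elmo2EID/EID samples were above every WT sample, and the gap between the groups was wider than the spread within either. The log2 fold change was 4.62 (standard error 0.42), with an adjusted p of 0.00438 by limma, 1.08e-11 by DESeq2 and 0.0016 by edgeR. Leaving out an Elmo2EID/EID sample kept the fold change at 4.63 without replicate 1 and 4.61 without replicate 2, and the limma adjusted p became 0.0807 and 0.0935 with a single sample in that arm. Without the mean-variance trend the adjusted p by limma was 0.0576.

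Even at this higher level Myh6 was a minor transcript. Per kilobase of coding transcript it was at 187.4 normalized counts in Elmo2EID/EID samples, rank 9 of the 10 genes in both genotypes, while Myh1 was at 119616.1. In WT its order against Myh13 was within the spread of the samples. Its share of summed muscle counts was 0.00221%, 0.00205% and 0.00608% in WT against 0.0763% and 0.0728% in Elmo2EID/EID samples. The 95% Wilson intervals, which cover counting error only, ran from 0.00143% to 0.00767% over the WT samples and from 0.0689% to 0.0806% over the Elmo2EID/EID samples. The share was higher in both Elmo2EID/EID samples (exact permutation p = 0.1, two-sided, which is the smallest that 3 samples against 2 allow). Adjusted over the 24 shares, sums and ratios compared here, that p was 0.3.

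Myh7, the slow and beta-cardiac chain that marks type I fibres, is the neighbour of Myh6 and its nearest relative in sequence. It was at 14194, 17321.2 and 36025.5 normalized counts in WT and at 22523.7 and 23635.7 in Elmo2EID/EID samples. The groups overlapped, with WT replicate 3 the highest of the 5 and the other two WT samples the lowest. The log2 fold change was 0.16 (95% interval -0.69 to 1.01, limma adjusted p = 0.883), and it ran from -0.11 without WT replicate 1 (limma adjusted p = 0.929) to 0.56 without WT replicate 3 (0.0723). WT replicate 3 was also the highest of the 5 for Myh7b, a slow relative of Myh7, at 1187.1 normalized counts against 369.0 to 836.4 in the others, and the highest WT library for Myh6.

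Relative to Myh7, Myh6 was nearly constant within each genotype. Myh6 counts were 0.224%, 0.194% and 0.245% of those of Myh7 in WT against 5.05% and 4.89% in Elmo2EID/EID samples, a 22.5-fold difference in means (exact permutation p = 0.1). The ratio was 0.221% ± 0.0255 (SD, n = 3) in WT, although Myh7 itself spanned 14194 to 36025.5 normalized counts there. In Elmo2EID/EID samples it was 4.97% ± 0.114 (SD, n = 2). The WT ratios rested on 36, 30 and 71 Myh6 reads. In the aligned coding sequences of Myh6 and Myh7, 53.8% of windows of read length differ at 2 bases or fewer. Whether part of the reads counted as Myh6 came from Myh7 was not tested. The WT level of Myh6, its ratio to Myh7 and its fold change therefore depend on the read assignment.

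**Figure D2:**
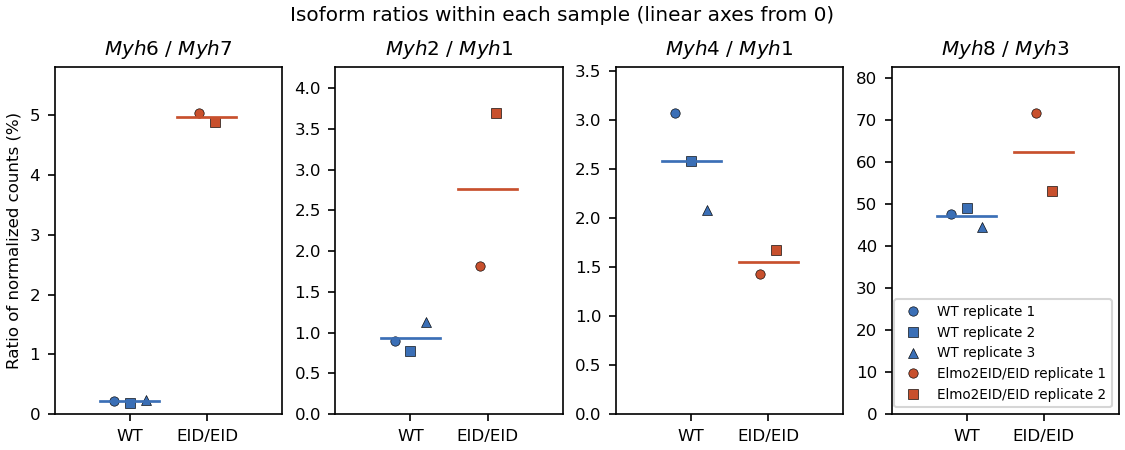
Ratio of the normalized counts of 2 isoforms within each sample, in percent on linear axes from 0, with 1 point per sample and a line at the group mean. The Myh6 to Myh7 ratio lies at 0.194% to 0.245% in WT and at 4.89% and 5.05% in Elmo2EID/EID samples, the Myh2 to Myh1 and Myh8 to Myh3 ratios lie higher in both Elmo2EID/EID samples, and the Myh4 to Myh1 ratio lies lower in both.

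Other transcripts of the Myh6 and Myh7 region did not pass the test. Mhrt, a long non-coding RNA that overlaps Myh7 on the opposite strand, was at 38.0, 39.3 and 93.2 normalized counts in WT and at 44.7 and 60.1 in Elmo2EID/EID samples. It was highest in WT replicate 3, and the groups overlapped. Gm29015 and Gm31251, the other 2 overlapping genes that were tested, did not pass either, and the log2 fold changes of the 3 ran from -0.26 to 0.53. The counting used the strand, which separates reads of Mhrt from those of Myh7. The precursors of the intronic microRNAs Mir208a (in Myh6) and Mir208b (in Myh7) were under 3 reads in every sample, in libraries that hold poly-A RNA and do not measure mature microRNAs. Among 15 tested genes within 250 kb on either side, a window chosen after the values were seen, 0 passed by limma or edgeR and 1 (Ppp1r3e) by DESeq2, with 2 at an unadjusted p under 0.05 by limma. Their median log2 fold change was -0.07, against 0.01 over all genes tested.

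The bases from 250 to 35 before the RefSeq start of Myh6 are printed because Myh6 had the largest change of the 10 genes, at chr14:54966642-54966857 on the minus strand of GRCm38.p6. The 34 bases nearest to that start are left out because GENCODE places them in the first exon of the longest Myh6 transcript, and the printed bases lie within an intron of another GENCODE transcript of Myh6 that starts further upstream. Capitals mark matches, on either strand, to 4 motifs of muscle promoters. These were the E-box CANNTG of the MYOD family, the MCAT box CATTCC of the TEAD family, the A/T-rich site of the MEF2 family and the TATAAA box, which occur in 66.2%, 12.6%, 2.92% and 12.4% of 32841 RefSeq promoter windows of the same length.
Myh6: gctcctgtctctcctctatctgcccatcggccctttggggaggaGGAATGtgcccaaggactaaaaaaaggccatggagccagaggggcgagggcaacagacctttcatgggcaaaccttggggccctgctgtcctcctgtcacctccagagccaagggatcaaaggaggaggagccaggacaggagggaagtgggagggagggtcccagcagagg
The printed bases held 1 MCAT box, on the opposite strand at 206 to 201 bases before the RefSeq start. The 250-base window that was searched also held 1 E-box at 13 to 8 bases before it, and neither of the other 2 motifs was found.

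The genes whose profile over the 5 samples was nearest to that of Myh6 were mostly annotated pseudogenes. Nearness was the Euclidean distance between centred log2(normalized count + 1) profiles, over the 11222 genes that averaged 100 normalized counts or more. The 5 nearest were Rpl3-ps1 (distance 0.965), Gm15459 (1.47), Gm10036 (1.47), Gm4737 (1.5) and Atp10d (1.6). Rpl3-ps1, an annotated processed pseudogene, was at 46.8, 52.7 and 58.4 normalized counts in WT and at 1242.2 and 1249.7 in Elmo2EID/EID samples. Gm15459 and Gm10036 carry the same annotation, and Atp10d, which encodes a phospholipid-transporting ATPase, is annotated as a polymorphic pseudogene. Reads of processed pseudogenes can be split with near-identical parent genes, so their counts are uncertain.

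Myh2 encodes the chain of fast oxidative IIa fibres. Its normalized counts were 5145.7, 5477.2 and 8084.9 in WT against 13849.6 and 25641.2 in Elmo2EID/EID samples. Both Elmo2EID/EID samples were above every WT sample, and they also differed from each other by more than the WT samples did. The log2 fold change was 1.63 (standard error 0.29, 95% interval 0.94 to 2.31), with an adjusted p of 0.0431 by limma, 0.00298 by DESeq2 and 0.0358 by edgeR. The call by limma was lost without WT replicate 1 (log2 fold change 1.5, adjusted p = 0.143), WT replicate 2 (1.55, 0.119), Elmo2EID/EID replicate 1 (2.07, 0.0734) or Elmo2EID/EID replicate 2 (1.18, 0.248). It was also lost without the mean-variance trend (limma adjusted p = 0.185) and without the filter on low values (0.147).

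Per kilobase of coding transcript, Myh2 ranked 7 of the 10 genes in WT and 5 in Elmo2EID/EID samples. It was at 1025.1 normalized counts per kilobase in WT and 3246.0 in Elmo2EID/EID samples, on the same scale. In Elmo2EID/EID samples its order against Myh7 and Myh9 was within the spread of the samples. Its share of the muscle counts was 0.358%, 0.333% and 0.557% in WT against 0.93% and 1.62% in Elmo2EID/EID samples (exact permutation p = 0.1). As a percentage of Myh1, its neighbour in the cluster, it was 0.899%, 0.776% and 1.13% in WT against 1.82% and 3.7% in Elmo2EID/EID samples, again with no overlap (exact permutation p = 0.1). Myh1, with which Myh2 shares most of its ambiguous positions, differed by only 0.14 on the log2 scale.

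Myh4 encodes the chain of the fastest, glycolytic IIb fibres of mouse limb muscle. It was at 17656.6, 18199.5 and 14858.5 normalized counts in WT and at 10916.2 and 11616.6 in Elmo2EID/EID samples. Every WT sample was above both Elmo2EID/EID samples. The log2 fold change was -0.58 (standard error 0.10), with an adjusted p of 0.0386 by limma, 1.5e-05 by DESeq2 and 0.0358 by edgeR. The limma call was lost without WT replicate 1 (log2 fold change -0.55, adjusted p = 0.141), WT replicate 2 (-0.52, 0.097), Elmo2EID/EID replicate 1 (-0.54, 0.224) or Elmo2EID/EID replicate 2 (-0.63, 0.227). Without the trend and without the filter the limma adjusted p was 0.176 and 0.128.

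Myh4 ranked 5 in WT and 7 in Elmo2EID/EID samples, at 2810.0 and 1872.7 normalized counts per kilobase of coding transcript. In WT its order against Myh7 and Myh9, which neighbour it, was within the spread of the samples. As a percentage of Myh1, Myh4 was at 3.08%, 2.58% and 2.08% in WT against 1.43% and 1.68% in Elmo2EID/EID samples (exact permutation p = 0.2). Its share of the muscle counts was 1.23%, 1.11% and 1.02% in WT against 0.733% and 0.732% in Elmo2EID/EID samples (exact permutation p = 0.1). The opposite directions of the pair turned the ratio of Myh2 to Myh4, which was 0.291, 0.301 and 0.544 in WT against 1.27 and 2.21 in Elmo2EID/EID samples. Myh4 counts were thus above those of Myh2 in every WT sample and below them in both Elmo2EID/EID samples (exact permutation p = 0.1 for the log2 ratio).

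The windows before the RefSeq starts of Myh2 (chr11:67170777-67171026) and Myh4 (chr11:67237562-67237811), both on the plus strand of GRCm38.p6, are printed because these genes, with Myh1 between them, changed in opposite directions. Capitals mark the same 4 motifs.
Myh2: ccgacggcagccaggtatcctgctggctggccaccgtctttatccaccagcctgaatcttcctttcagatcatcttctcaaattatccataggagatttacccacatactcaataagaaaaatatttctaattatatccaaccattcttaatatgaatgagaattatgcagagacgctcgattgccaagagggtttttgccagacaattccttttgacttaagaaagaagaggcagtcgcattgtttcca
Myh4: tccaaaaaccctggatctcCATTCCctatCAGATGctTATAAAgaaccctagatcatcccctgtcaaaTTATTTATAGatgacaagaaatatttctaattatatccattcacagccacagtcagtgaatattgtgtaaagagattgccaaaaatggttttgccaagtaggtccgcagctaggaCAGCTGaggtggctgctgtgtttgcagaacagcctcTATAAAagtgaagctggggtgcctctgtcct
None of the 4 motifs was found in the Myh2 window. The Myh4 window held 2 E-boxes, 1 MCAT box, 1 MEF2 site and 3 TATAAA matches, of which the one on the opposite strand, at 179 to 174 bases before the start, lies inside the MEF2 site. The windows of Myh1 and Myh8 also held a MEF2 site with such an overlapping match. These are matches of letters and not measurements of binding.

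Myh1, the fast IIx chain, was the most abundant by mean count in both genotypes. Its normalized counts were 572338.3, 706068.9 and 713390.8 in WT against 761386.6 and 693384.9 in Elmo2EID/EID samples, and the groups overlapped. The log2 fold change was 0.14 (95% interval -0.2 to 0.48, limma adjusted p = 0.725). Per kilobase of coding transcript it was at 109181.5 in WT, which overlapped with Myh3 at 90272.2. Myh13, the extraocular chain and the last gene of the cluster, was near the lower end of the measured range, at 27.4, 33.7 and 16.2 normalized counts in WT and at 27.7 and 122.8 in Elmo2EID/EID samples. Its log2 fold change of 1.22 (standard error 0.63, limma adjusted p = 0.423) rested on Elmo2EID/EID replicate 2, without which it was 0.16.

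The developmental isoforms kept a large share of the total in both genotypes. Myh3, the embryonic chain, was at 560936.3, 602709.2 and 469649.1 normalized counts in WT and at 395822.7 and 543065.5 in Elmo2EID/EID samples. Myh8, the neonatal chain, was at 267230.6, 294580.7 and 209608.2 in WT and at 283671.0 and 288420.7 in Elmo2EID/EID samples. The groups overlapped for both genes. The log2 fold changes were -0.22 (95% interval -0.65 to 0.2, limma adjusted p = 0.622) for Myh3 and 0.17 (-0.2 to 0.53, 0.676) for Myh8. That of Myh3 was 0.0 without Elmo2EID/EID replicate 1 and -0.45 without Elmo2EID/EID replicate 2. Within a sample, Myh8 was 47.6%, 48.9% and 44.6% of Myh3 in WT against 71.7% and 53.1% in Elmo2EID/EID samples, which did not overlap (exact permutation p = 0.1).

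Taken by class, the isoform balance differed by less than the spread between samples. Myh3 and Myh8 together made up 57.6%, 54.6% and 46.8% of the muscle counts in WT against 45.6% and 52.4% in Elmo2EID/EID samples, or 53.0% ± 5.58 (SD, n = 3) against 49.0% ± 4.79 (SD, n = 2) (exact permutation p = 0.4). The adult fast chains Myh1, Myh2 and Myh4 made up 41.4%, 44.4% and 50.7% in WT against 52.8% and 46.0% in Elmo2EID/EID samples (exact permutation p = 0.4). Myh7 and Myh6 made up 0.99%, 1.06% and 2.49% in WT against 1.59% and 1.56% in Elmo2EID/EID samples (exact permutation p = 1.0). Among WT samples, replicate 3 had the lowest developmental share and the highest fast and slow shares, and the groups overlapped in every class. By single isoform, Myh1 held 39.8%, 42.9% and 49.1% in WT against 51.1% and 43.7% in Elmo2EID/EID samples.

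**Figure D3:**
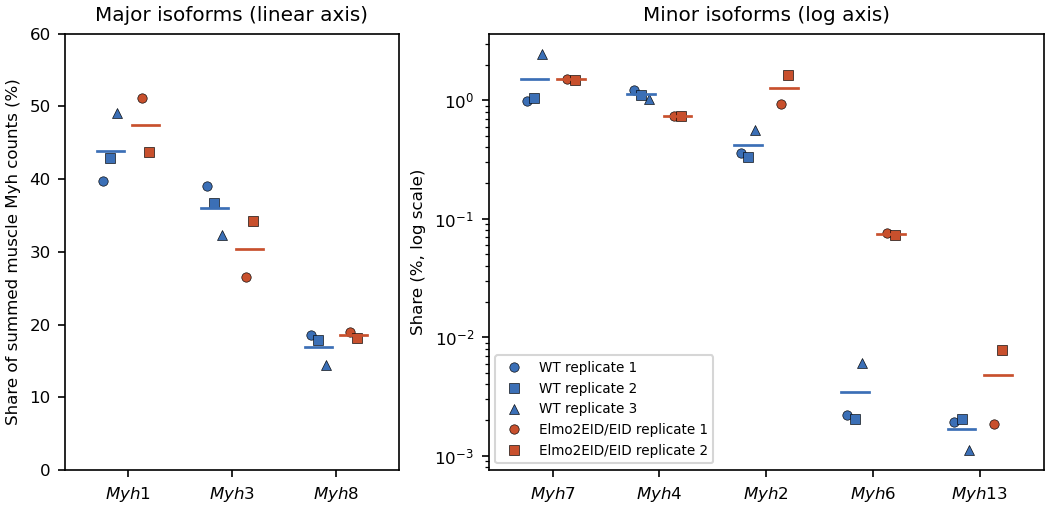
Share of the summed counts of the 8 muscle myosin heavy chain genes held by each isoform in each sample, in percent, on a linear axis for Myh1, Myh3 and Myh8 (left) and on a log axis for the 5 minor isoforms (right), with 1 point per sample and a line at the group mean. The major isoforms overlap between the genotypes, whereas Myh2 and Myh6 take higher shares and Myh4 a lower share in both Elmo2EID/EID samples.

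The amount of muscle myosin heavy chain RNA was close in the genotypes. The summed counts of the 8 muscle genes were 1437560.7, 1644424.0 and 1451721.4 in WT against 1489334.2 and 1587042.1 in Elmo2EID/EID samples, a log2 difference of 0.03 (exact permutation p = 0.8). They took 3.33%, 3.7% and 3.33% of the reads counted in genes in the WT libraries and 3.39% and 3.58% in the Elmo2EID/EID libraries. Without Myh1, Myh3 and Myh8, the sum was 45731.3 ± 11700 (SD, n = 3) in WT against 55312.5 ± 9700 (SD, n = 2) in Elmo2EID/EID samples (exact permutation p = 0.4).

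The non-muscle chains Myh9 and Myh10, the heavy chains of non-muscle myosin IIA and IIB, did not pass the test. Myh9 (chromosome 15) was at 20757.8, 21353.7 and 18396.2 normalized counts in WT and at 16280.4 and 17832.8 in Elmo2EID/EID samples. All WT samples were above both Elmo2EID/EID samples, with a log2 fold change of -0.24 (95% interval -0.45 to -0.03, limma adjusted p = 0.256). Myh10 (chromosome 11, outside the muscle cluster) was at 4010.4, 3946.1 and 4118.3 in WT and at 3548.7 and 5074.1 in Elmo2EID/EID samples. The 2 Elmo2EID/EID samples lay on either side of all WT samples, and the log2 fold change was 0.08 (limma adjusted p = 0.851). It was 0.33 without Elmo2EID/EID replicate 1 and -0.18 without Elmo2EID/EID replicate 2. The summed non-muscle counts were 1.72%, 1.54% and 1.55% of the muscle sum in WT against 1.33% and 1.44% in Elmo2EID/EID samples, a log2 difference of -0.21 with no overlap (exact permutation p = 0.1). The summed counts of the 10 markers of cycling cells, which do not form thick filaments, were 4307.2, 4269.2 and 2992.1 in WT against 2826.1 and 3014.9 in Elmo2EID/EID samples, with 0 called by limma, DESeq2 or edgeR and 5 at an unadjusted p under 0.05 by limma, against 15.2% of all genes tested. Their log2 fold changes ran from -0.64 to -0.14 with a median of -0.4, and 6 of the 10 had no overlap between the groups, against 32.6% of all genes tested. The most abundant were Top2a, a DNA topoisomerase, at 1181.3, 1171.0 and 804.3 against 715.5 and 722.6, and Mki67, a proliferation marker, at 1043.5, 968.0 and 716.0 against 691.3 and 857.9. Their part in the ratio was not tested.

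**Figure D4:**
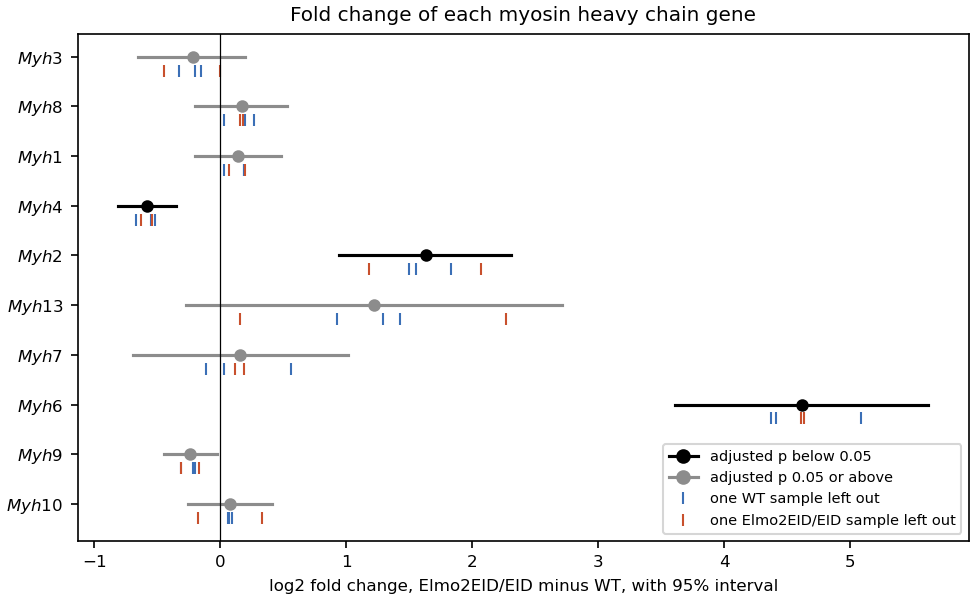
Log2 fold change (Elmo2EID/EID minus WT) of each myosin heavy chain gene with its 95% interval from limma, in black where the adjusted p was below 0.05, with ticks below each bar for the value after leaving out 1 sample. Myh6, Myh2 and Myh4 are the 3 called genes, and the ticks of Myh6 stay between 4.37 and 5.09.

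Of the markers of other cell types and of myoblasts, Rgs5 and Pax7 passed the limma test. Rgs5 did not pass without Elmo2EID/EID replicate 1 (limma adjusted p = 0.0929) or 2 (0.0966) or without the trend (0.0516), nor did Pax7 without Elmo2EID/EID replicate 2 (0.0544) or without the trend (0.076). The highest endothelial markers were Emcn, at 293.3, 41.5 and 239.9 normalized counts in WT and at 817.4 and 1438.9 in Elmo2EID/EID samples, and Cdh5, at 281.0, 59.4 and 297.1 against 727.1 and 1001.4. The median log2 fold change of the endothelial list was 2.1, with 0 of 12 called by limma (9 at an unadjusted p under 0.05, as were 15.2% of all genes tested), 5 by DESeq2 (Vwf, Flt1, Tie1, Esam and Erg) and 1 by edgeR (Flt1), genes named after their values were seen. In WT replicates 1, 2 and 3, Myh6 was at 31.8, 33.7 and 88.3 normalized counts beside endothelial sums of 1245.8, 402.7 and 1345.0, and in Elmo2EID/EID replicates 1 and 2 it was at 1136.7 and 1154.7 beside 3180.2 and 4642.9. In the Schwann cell list 0 of 7 were called by any of the 3 tools (2 by limma before adjustment), and its highest gene, Erbb3, was at 15067.2 to 16916.3 in all samples. Ngfr of the same list was at 71.6, 34.8 and 294.6 in WT and at 344.3 and 200.8 in Elmo2EID/EID samples. In the fibroblast list the 3 tools called 0 of 6 tested genes (2 by limma before adjustment), and its highest genes Pdgfra, a growth factor receptor, and Col15a1, a collagen, had log2 fold changes of 0.11 and 1.44 with adjusted p-values of 0.964 and 0.627 by limma. The 6 genes had log2 fold changes of 0.11 to 1.8, with a median of 1.1, and 2 of them, Dcn (1.8) and Cd34 (1.42), named after their values were seen, did not overlap between the groups. In the macrophage list they called 0 of 4 (1 by limma before adjustment), with summed counts of 27.3 to 195.0, mostly of the lysozyme Lyz2 and of Cd68. In the smooth muscle and pericyte list Rgs5, a regulator of G protein signalling, was lower, at 125.5, 65.1 and 90.7 in WT and at 9.84 and 11.7 in Elmo2EID/EID samples (limma adjusted p = 0.00759). In the same list Myh11, Cnn1 and Cspg4, named after their values were seen, were above every WT sample in both Elmo2EID/EID samples, with log2 fold changes of 1.42, 0.89 and 0.39, and did not pass. Among the 4 myoblast markers Pax7, the transcription factor of satellite cells, was lower, at 922.4, 942.2 and 836.6 in WT and at 414.1 and 297.6 in Elmo2EID/EID samples (limma adjusted p = 0.00764). Myf5 of that list, also named after its values were seen, was at 3122.4, 2188.4 and 4399.2 in WT and at 5152.2 and 5254.3 in Elmo2EID/EID samples (log2 fold change 0.74, limma adjusted p = 0.237). The part of other cell types in the differences of Myh6, Myh2 and Myh4 was not tested.

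The genes that work with myosin heavy chains mostly did not pass. In 8 lists of light chains, thick filament and assembly genes, regulators and fibre type partners, 88 genes were tested and 1 passed, or 1.14%, against 2.23% of all genes tested. In 30 of the 88 genes no WT sample lay within the Elmo2EID/EID range or the reverse, as in 32.6% of all genes tested. The gene that passed was Myom3, a myomeric protein of the M-band that crosslinks thick filaments. It was at 29929.8, 34506.7 and 31760.5 normalized counts in WT and at 17992.1 and 21264.6 in Elmo2EID/EID samples, with a log2 fold change of -0.71 (standard error 0.1, limma adjusted p = 0.02). Leaving out any sample but WT replicate 3 took its limma adjusted p to between 0.0513 and 0.135, and so did removing the trend (0.129) or the filter (0.0845). The remaining 17 thick filament genes did not pass, and the median of the 18 was 0.04.

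Light chains, which stiffen the lever arm of the motor, showed no called gene among 11 by limma or edgeR and 1, Myl9, by DESeq2, with 2 at an unadjusted p under 0.05 by limma. Myl9, a regulatory chain of smooth and non-muscle myosin named after its values were seen, was at 2180.6, 2143.6 and 1719.2 normalized counts in WT and at 1495.3 and 866.0 in Elmo2EID/EID samples. Myl1, the fast essential chain, was at 276825.8, 301986.1 and 313967.9 in WT and at 308460.9 and 323586.1 in Elmo2EID/EID samples, and Mylpf, the fast regulatory chain, at 213017.7, 232611.5 and 198735.0 against 188668.9 and 209644.1. The fast partners (7 tested, median log2 fold change -0.15), the slow partners (6, -0.09) and the developmental partners (3, 0.0) held no called gene by limma, DESeq2 or edgeR, and 1, 0 and 0 genes of these lists had an unadjusted p under 0.05 by limma. Of the fast list, Atp2a1, the calcium pump of fast fibres, had a log2 fold change of -0.07, and Tnnt3, fast troponin T, -0.11. In the slow list these values were -0.07 for Tnni1, slow troponin I, and 0.03 for Casq2, the slow calsequestrin. The developmental list had -0.01 for Actc1, cardiac actin, and 0.0 for Acta1, skeletal actin. The largest in these 3 lists was that of Pvalb, a calcium buffer of fast fibres singled out after its values were seen, at 917.1, 2334.2 and 1001.9 in WT against 532.1 and 338.9 in Elmo2EID/EID samples (log2 fold change -1.6, limma adjusted p = 0.119).

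None of 23 fibre type regulators passed by limma, with 1 higher and 1 lower by DESeq2, 0 by edgeR and 8 at an unadjusted p under 0.05 by limma, as were 15.2% of all genes tested. The groups had no overlap for 12 of the 23, against 32.6% of all genes tested, and the median log2 fold change was 0.05. The genes called by DESeq2, named after their values were seen, were Eya4, a transcriptional cofactor, with a log2 fold change of 0.26 (adjusted p = 0.1 by limma and 0.013 by DESeq2), and Mef2a, a MEF2 factor, with -0.26 (0.132 and 0.0138). Mef2c, a factor of muscle promoters, was at 84274.1 to 103499.9 normalized counts in WT and at 88654.1 and 94793.1 in Elmo2EID/EID samples, and Myog, the differentiation factor, at 47286.2 to 50441.0 against 53543.6 and 50611.8. Among 16 actomyosin regulators 0 passed by limma, with 1 higher by DESeq2, 0 by edgeR and 4 at an unadjusted p under 0.05 by limma. No overlap between the groups was seen for 7 of the 16, against 32.6% of all genes tested. Mylk4, a myosin light chain kinase family member, was at 23146.9, 23002.6 and 26759.6 in WT and at 27976.5 and 29734.5 in Elmo2EID/EID samples (log2 fold change 0.25), and it was called neither by limma (adjusted p = 0.241) nor by DESeq2 (0.151). Of the 4 other myosin heavy chains tested, Myh7b had a log2 fold change of 0.33 and Myh14, a non-muscle chain, of -0.38, and neither passed. Myh11, the smooth muscle chain, was at 41.5, 22.4 and 84.5 normalized counts in WT and at 128.8 and 105.8 in Elmo2EID/EID samples, with no overlap (log2 fold change 1.42, limma adjusted p = 0.25).

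**Figure D5:**
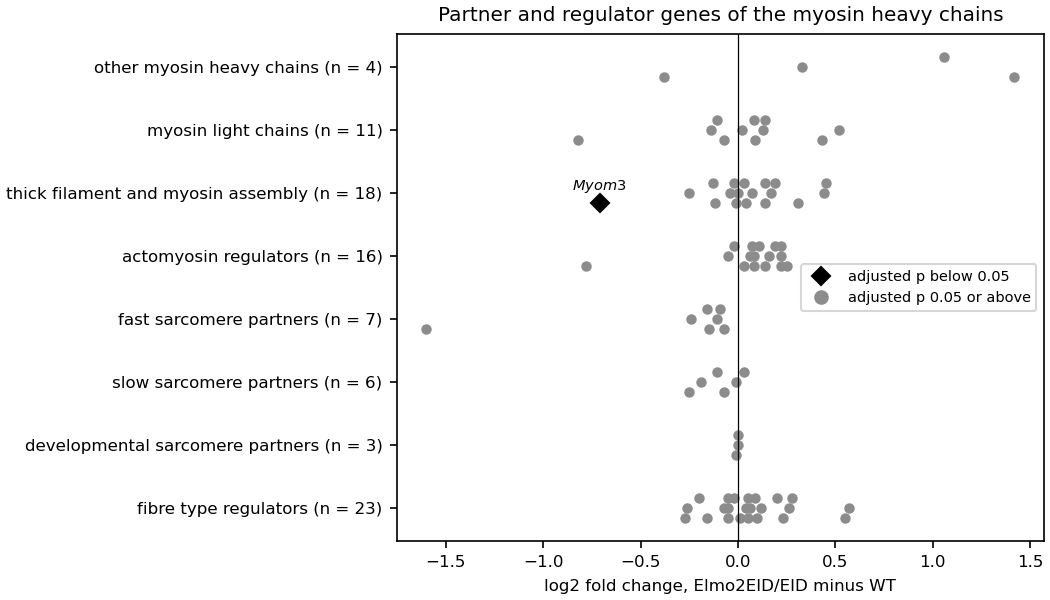
Log2 fold change (Elmo2EID/EID minus WT) of the 88 tested genes of the 8 lists, with 1 point per gene, spread vertically only for legibility. Myom3 (-0.71) is the 1 gene with an adjusted p below 0.05, and most other points lie near 0.

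Within the chromosome 11 cluster, the non-coding genes between the myosin genes did not pass. Myhas, an RNA on the opposite strand of the fast genes, was at 980.7, 1167.7 and 1274.1 normalized counts in WT, and its log2 fold change and those of 9430073C21Rik and 2310065F04Rik ran from 0.05 to 0.37. Myh2, between Myh3 and Myh1, and Myh4, between Myh1 and Myh8, were the 2 genes of the cluster that passed, on either side of Myh1, which did not.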

How the data were processed

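Poly-A RNA of 5 samples (WT n = 3, Elmo2EID/EID n = 2), grouped by the genotype in the sample labels, was sequenced as stranded paired 50-base reads. Per the labels and the methods of the study, the authors checked reads with FastQC 0.11.5, aligned them untrimmed to GRCm38 with STAR 2.5.1b and counted unique alignments on the reverse strand with featureCounts 1.4.6. The authors deposited this signal as gene counts divided by a DESeq2 1.34.0 size factor. Division by the value of 1 read gave whole reads, within 0.01 of a read, for 100.0% of positive values, with totals of 35021856 to 49381544 reads per sample. A pseudocount of 1 understates fold changes of low genes.

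The 18156 genes that reached 5 normalized counts in any sample were tested on log2(normalized count + 1) with limma 3.58.1 (lmFit and eBayes with trend, two-sided, Benjamini-Hochberg threshold 0.05). edgeR 4.0.16 (quasi-likelihood) and DESeq2 1.42.0 (Wald) on recovered reads, other pseudocounts, filters and scalings, a replicate block, and leaving out each sample were alternatives. Sums, shares and log2 ratios were compared by exact permutation, over all 10 assignments of the genotypes. The fits were tested on simulated counts. Same-numbered samples share only a number, since no label ties them, so samples were not paired.

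The members and gene lists were chosen with earlier results of these data known. The text names every member, the genes called in each list (or, with none, the 2 with the highest mean), genes that overlap the members, and the 5 genes with the profile nearest to Myh6. The values of 1 actomyosin regulator that this rule takes are not reported here. Gene models and transcripts were from GENCODE M21, which matched 54079 of 54232 identifiers, and promoter windows from RefSeq (GRCm38.p6). R 4.3.3, Python 3.11.15, pandas 2.3.3 and scipy 1.17.1 were used.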

Additional observations from a re-analysis of the deposited data

How the results depend on the processing

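Read depth limits only Myh13 and the WT values of Myh6, which rest on 13 to 137 and 30 to 71 reads. The 3 called members kept their direction under all 16 alternatives, with log2 fold changes of 4.37 to 5.09 for Myh6, 1.18 to 2.07 for Myh2 and -0.67 to -0.52 for Myh4. The number of members called was 3, and became 1 without a filter on low values and 0 without limma's trend. Leaving out each sample gave 0 to 3. The 1 list gene called became 0 without the filter or the trend, 5 with DESeq2 (among them Myom3, Myl9, Eya4 and Mef2a, named after their values were seen), and 0 to 1 without each sample. Over all genes, 404 calls became 155 without the filter, 144 without the trend, 969 with DESeq2 and 54 to 349 without each sample. With a single sample in an arm, that sample is assumed to vary like the other group.

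The replicate block, in which WT replicate 3 carries no information, gave 3 members and 1 list gene called and 224 calls over all genes. Differences between replicates 1 and 2 correlated at -0.272 between the genotypes over 12298 genes, and the crossed block, added after that was seen, gave 4 members (with Myh7 also called), 9 list genes and 1041 genes. Of the other values, the muscle total ranged from -0.02 to 0.09 (log2), the developmental share difference from -7.36 to -0.596 percentage points and the log2 non-muscle to muscle ratio from -0.27 to -0.15. Scaling by exon length or by unique sequence among transcripts (added after the data were seen) changed the developmental share in WT from 53.0% to 50.2% and 46.4%, and left Myh6 21.4-fold to 22.0-fold higher. Uniqueness against the genome was not run, since no genome sequence was used here.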
